A study of Mus musculus with 88 samples.

Results

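The expression of 10 genes of the endothelial and early blood lineages was followed through the 4 expression tables of a mouse embryonic stem cell series on Polycomb repressive complex 2 (PRC2) mutants. The genes were Kdr, Tie1, Tek, Cdh5, Pecam1, Etv2, Sox18, Tal1, Lmo2 and Runx1, taken as a list, by name. All 10 were rows of each table, among 53697 genes in the mesoderm table, 54393 in the endoderm table, 26007 in the bulk embryoid body table and 15830 in the single-cell table. After the filter on low values, 8 of the 10 could be tested in the mesoderm series (not Kdr and Etv2), 9 of the 10 in the endoderm series (not Etv2), and 7, 8, 9 and 10 of the 10 in the comparisons among embryoid bodies.

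Blood vessels and the first blood cells of the embryo arise from mesoderm that carries the VEGF receptor KDR on its surface. The ETS factor ETV2 acts at the top of this step, and the SCL (TAL1) and LMO2 proteins work with GATA factors in a shared complex that opens the blood and endothelial programmes. Endothelial cells then take on the receptors TIE1 and TEK, the junction protein VE-cadherin (CDH5) and the adhesion protein PECAM1, with SOX18 as one of their transcription factors, while RUNX1 is needed for definitive blood cells to emerge from endothelium. PRC2 places the repressive H3K27me3 mark on many such developmental genes in stem cells. EED is a core subunit, and MTF2 and JARID2 belong to alternative forms of the complex.

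In the GRCm38 build, Kdr lay on chromosome 5 (75932827 to 75978458, minus strand), and its fellow receptor genes Tie1 and Tek both lay on chromosome 4 (118471191 to 118490061, minus strand, and 94739289 to 94874976, plus strand). Cdh5 lay on chromosome 8 (104101625 to 104144511, plus strand) and Pecam1 on chromosome 11 (106654217 to 106750628, minus strand). Among the transcription factor genes, Etv2 was on chromosome 7 (30633616 to 30635852, minus strand), Sox18 on chromosome 2 (181669836 to 181671640, minus strand), Tal1 on chromosome 4 (115056426 to 115071755, plus strand), Lmo2 on chromosome 2 (103957986 to 103981878, plus strand) and Runx1 on chromosome 16 (92601466 to 92826149, minus strand). RefSeq promoter windows (build GRCm38.p6, the 250 bases upstream of a transcript start, on the strand of the gene) were at hand for 6 of the 10 genes, 8 windows in all, since Runx1 and Tal1 have separate starts. Those of Kdr, Etv2, Tie1 and Tek are printed, to set the earliest mesodermal genes beside a pair of later endothelial receptors. Capitals mark the core letters that ETS factors bind, GGAAG or its reverse complement CTTCC.
Kdr (chr5:75978456-75978705, minus strand): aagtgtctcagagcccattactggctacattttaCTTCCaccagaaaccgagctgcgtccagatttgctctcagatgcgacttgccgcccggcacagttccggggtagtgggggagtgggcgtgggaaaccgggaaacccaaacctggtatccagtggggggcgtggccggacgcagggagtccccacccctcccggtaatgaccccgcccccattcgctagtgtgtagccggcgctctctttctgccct
Etv2 (chr7:30635853-30636102, minus strand): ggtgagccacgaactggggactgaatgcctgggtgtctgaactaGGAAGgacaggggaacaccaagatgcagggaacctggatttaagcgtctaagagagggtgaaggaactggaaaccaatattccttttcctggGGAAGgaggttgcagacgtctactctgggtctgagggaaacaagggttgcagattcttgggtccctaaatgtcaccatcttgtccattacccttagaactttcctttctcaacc
Tie1 (chr4:118489850-118490099, minus strand): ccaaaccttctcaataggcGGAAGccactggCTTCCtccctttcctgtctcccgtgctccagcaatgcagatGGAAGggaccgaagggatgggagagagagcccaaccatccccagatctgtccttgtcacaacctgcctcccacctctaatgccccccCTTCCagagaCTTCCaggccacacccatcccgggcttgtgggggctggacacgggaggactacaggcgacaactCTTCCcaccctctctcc
Tek (chr4:94739039-94739288, plus strand): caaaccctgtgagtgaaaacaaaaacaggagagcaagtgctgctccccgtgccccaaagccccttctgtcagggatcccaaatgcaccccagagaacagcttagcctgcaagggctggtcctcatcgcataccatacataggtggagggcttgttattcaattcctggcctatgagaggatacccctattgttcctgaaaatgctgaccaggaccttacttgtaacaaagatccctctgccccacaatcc
Kdr had 1 match, Etv2 had 2, Tie1 had 6 and Tek had 0. Of the 8 windows 5 held the ETS letters, against 64.1% of all 32851 RefSeq windows of the same length. The GATA letters AGATAA or TTATCT, searched on both strands like the ETS letters, with which a match can share bases, were in 1 of the 8 (a Tal1 window), against 9.99% of all windows. The members were therefore near the background in both, and a match is a string of letters, not a bound site. Cdh5, Pecam1, Lmo2 and Sox18 are named only.

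All cells were mouse embryonic stem cells maintained in serum with LIF before differentiation. Embryoid bodies were aggregated with LIF and then differentiated by its removal. The directed series compared E14 wild-type (WT) cells with Mtf2 null cells, a gene-trap line, and Jarid2 null cells at 4 times (undifferentiated, and after 5, 24 and 48 h), with 2 libraries for each genotype and time. In the mesoderm series cells were given Activin A, BMP4, CHIR99021 and FGF2 for 24 h and then A-83-01 with BMP4. In the endoderm series they were given Activin A, CHIR99021 and FGF2 for 24 h and then Activin A with DM3189. Bulk embryoid bodies were sampled at days 0, 2, 4 and 7 from 3 WT lines (Pcl1-3 WT, JM8 and J1) and from lines labelled Eed null, Jarid2 null and Mtf2 null, 1 sample per line and day. Single cells came from embryoid bodies of E14 WT cells and of the Eed null, Jarid2 null and Mtf2 null lines at days 0, 4, 7 and 10, 1 library per genotype and day. The columns of both 48 h endoderm libraries labelled Jarid2 null carry another hour in their names and were taken as 48 h from the labels. The WT lines matched to the mutants by background were Pcl1-3 WT, JM8 and J1, but in the directed and single-cell experiments each mutant was set against E14, so that genotype and line background cannot be told apart there. The study calls the pair of directed libraries of each group technical duplicates, and their p-values measure only the spread between such libraries. In bulk embryoid bodies each labelled line was tested against a single WT line, with the days of a single course as the replication. Those p-values do not measure spread between cultures of a line. Genotype cannot be told apart there from other differences between the lines.

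Libraries of the directed series held 9111880 to 16898264 estimated reads (mesoderm) and 9889592 to 16372804 (endoderm), columns of the embryoid body data between 3005707 and 22944105 reads, and cells a median of 6650 unique molecular identifiers (UMIs). Of the 12 undifferentiated libraries, 9 were nearer to the same-numbered library of the other directed series than to their own replicate, so the undifferentiated values of the 2 series are not separate evidence. In directed libraries Mtf2 had a group mean of 31.9 to 37.7 counts scaled to library size (CPM) in Mtf2 null cells and 186 to 478 CPM in the other groups, while Jarid2 was not clearly lower in those labelled Jarid2 null. Its group means there were 204 to 614.96 CPM in mesoderm and 285 to 559 CPM in endoderm, against 327 to 649 CPM and 317 to 595 CPM in WT. What those libraries show is therefore given for the label alone. In single cells all 3 targeted genes were lower in their mutant than in WT on every day. In bulk embryoid bodies they were not: Mtf2 was at 166 to 324 CPM in the line labelled Mtf2 null against 316 to 433 CPM in Pcl1-3 WT, Jarid2 at 223 to 676 CPM in the line labelled Jarid2 null against 272 to 636 CPM in JM8, and Eed at 58.8 to 205 CPM under the Eed null label where J1 held 52.9 to 246 CPM. These are therefore written as lines labelled null.

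The first question was when the genes come on in WT embryoid bodies. By day 7 Kdr, Tie1, Cdh5, Sox18, Tal1, Lmo2 and Runx1 were higher than on day 0 over the 3 WT lines, at very different heights in each. The day 0 columns are named as monolayer cells, so day and culture form cannot be told apart in a comparison with day 0. Kdr, the main receptor for VEGF-A, was at 0.687, 1.91, 313 and 223 CPM in J1 on days 0, 2, 4 and 7. It was at 0.691, 0.525, 2.76 and 136 CPM in JM8, and at 1.53, 1.73, 3.03 and 4.15 CPM in Pcl1-3 WT. Kdr had thus reached its highest value by day 4 in J1, came on after day 4 in JM8, and stayed low in Pcl1-3 WT. Cdh5, the adherens junction cadherin of endothelium, reached 146 CPM at day 7 in J1, 76.8 CPM in JM8 and 1.17 CPM in Pcl1-3 WT, from no more than 0.208 CPM in any WT line at day 0. Tie1, an orphan receptor that works with TEK, reached 55.3, 20.0 and 0.428 CPM in the same order. Sox18 reached 20.9, 14.0 and 2.18 CPM. Across these genes J1 was highest, JM8 next and Pcl1-3 WT lowest at day 7. Fewer cells of a type and less RNA per cell cannot be told apart in such bulk samples.

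The blood genes followed the same order of lines. Tal1, the helix-loop-helix factor needed for all blood lineages, rose in J1 from 0.858 CPM at day 0 to 51.7 CPM at day 4 and 82.0 CPM at day 7, and reached 32.2 CPM in JM8 and 1.63 CPM in Pcl1-3 WT. Lmo2, its LIM-domain partner, peaked at day 4 in J1 (43.1 CPM, then 24.3 CPM at day 7) and stood at 14.8 CPM in JM8 at day 7. Runx1 reached 66.4 CPM in J1, 25.1 CPM in JM8 and 3.89 CPM in Pcl1-3 WT at day 7. Etv2 was largely gone by day 7 in J1: it was at 0 CPM on day 0, 23.2 CPM on day 4 and 2.46 CPM on day 7, while in JM8 it was at 7.47 CPM on day 7, its highest.

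Pecam1 and Tek did not start from nothing. Pecam1, which mouse embryonic stem cells also carry, was highest on day 0 in each of the 3 WT lines (209 CPM in J1, 190 CPM in JM8 and 183 CPM in Pcl1-3 WT) and fell to 11.0, 34.3 and 88.5 CPM by day 4 before it stood at 91.0, 104 and 127 CPM on day 7. Tek, the angiopoietin receptor, was at 10.6, 21.5 and 36.8 CPM on day 0 and at 74.8, 29.05 and 19.5 CPM on day 7 in J1, JM8 and Pcl1-3 WT. Its order among the lines on day 0 was the reverse of that on day 7.

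**Figure D1:**
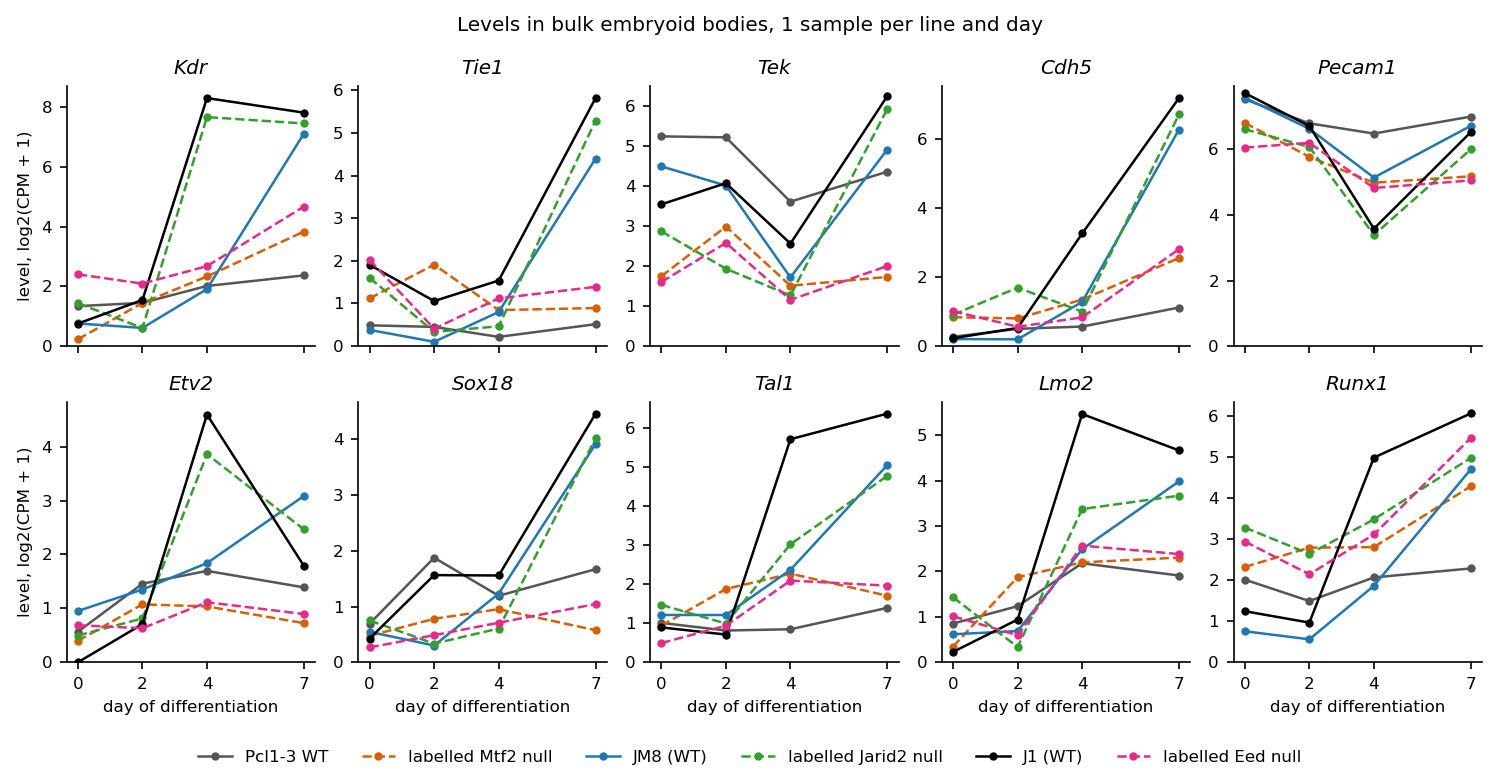
Levels of the 10 genes in bulk embryoid bodies, one panel per gene, as log2(CPM + 1) against day of differentiation, with a line of points for each of the 6 cell lines (1 sample per line and day). J1, JM8 and the line labelled Jarid2 null were higher on day 7 than on day 0 in most panels, with Cdh5 at 146, 76.8 and 105 CPM, while the other 3 lines stayed at or below 6.03 CPM.

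Across the 3 WT lines, with line as a block, day 7 differed from day 0 (limma, Benjamini-Hochberg adjusted p under 0.05 over all genes) for 7 of the 10 members, all higher, and 25.8% of all genes tested were called in that comparison. The log2 differences were 5.31 for Kdr (SE 1.46, adjusted p = 0.0261), 5.54 for Cdh5 (SE 1.15, adjusted p = 0.00999) and 3.64 for Lmo2 (SE 0.85, adjusted p = 0.0147). Those of Tal1, Runx1, Sox18 and Tie1 ran from 3.03 to 3.61 with adjusted p of 0.0115 to 0.0370. Tek (0.76, adjusted p = 0.364), Pecam1 (-0.86, adjusted p = 0.192) and Etv2 (2.23, adjusted p = 0.0782) did not pass. Each of the 7 calls was lost when J1 was left out (adjusted p of 0.0603 to 0.22) or when JM8 was left out (0.154 to 0.326), whereas 8 members were called without Pcl1-3 WT. Of the other genes of the pathway, those called higher in the same samples were 8 of the 12 endothelial transcription factor genes tested (Nr2f2 by 5.79 and Fli1 by 4.54 on the log2 scale), 5 of the 9 receptors (Nrp1 by 6.83 and Flt1 by 4.57) 3 of the 9 surface and junction genes, 2 of the 6 ligands, 1 of the 7 blood transcription factors and partners (Cbfb), and 1 of the 4 blood surface and globin genes, the embryonic globin Hbb-bh1, by 8.84. Called lower were Vwf (log2 difference -2.21, adjusted p = 0.00494) and Vegfd (-1.47, adjusted p = 0.0205). Markers of primitive red cells (Gata1, Klf1, Hbb-bh1, Hba-x) summed to 5920 CPM in J1, 905 CPM in JM8 and 3.57 CPM in Pcl1-3 WT at day 7, where 3 of the 4 were above 0. Pluripotency markers summed to 111, 782 and 1703 CPM in the same samples. Their part in the member levels was not tested.

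The second question was how the labelled mutant lines compare with the WT line of their own background. At day 7 Kdr, Cdh5, Tie1 and Tal1 were at higher levels in the line labelled Jarid2 null than in the lines labelled Mtf2 null and Eed null. None of the 4 was called in any of these lines against its own WT line. Tie1 (Mtf2 and Jarid2 labels) and Cdh5 (Mtf2 label) were not tested, as they did not reach 1 CPM in 4 samples of the pair of lines. Kdr was at 1.70, 0.523, 201 and 173 CPM on the 4 days in the line labelled Jarid2 null, already high at day 4 when JM8 was at 2.76 CPM. It was at 0.172, 1.72, 4.03 and 13.2 CPM in the line labelled Mtf2 null and at 4.27, 3.26, 5.39 and 24.3 CPM in the line labelled Eed null. At day 7 the first of these was above Pcl1-3 WT (4.15 CPM) and the second under J1 (223 CPM). Over the 4 days the Kdr differences did not pass the test (limma adjusted p = 0.967 for the Mtf2 label, 0.207 for the Jarid2 label and 0.448 for the Eed label). Cdh5 at day 7 was at 105 CPM in the line labelled Jarid2 null, 4.88 CPM in the line labelled Mtf2 null and 6.03 CPM in the line labelled Eed null, and Tie1 was at 38, 0.858 and 1.62 CPM. Cdh5 and Tie1 in the line labelled Mtf2 null were thus above their levels in Pcl1-3 WT (1.17 and 0.428 CPM). Tal1 at day 7 was at 26.5 CPM in the line labelled Jarid2 null and at most 2.90 CPM in the other 2.

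Runx1 followed another course. In the line labelled Eed null it reached 43.5 CPM at day 7 and in the line labelled Mtf2 null 18.6 CPM, although Tal1 and Lmo2 stayed at or under 4.92 CPM on every day in both. Already on day 0 it was at 8.78 CPM in the line labelled Jarid2 null, 6.72 CPM in the line labelled Eed null and 4.02 CPM in the line labelled Mtf2 null, against 0.691, 1.37 and 3.05 CPM in JM8, J1 and Pcl1-3 WT. The mutant-labelled lines were thus the 3 highest on day 0. Against its own WT line with day as a block, the line labelled Jarid2 null had Runx1 higher by 1.98 on the log2 scale (SE 0.46, limma adjusted p = 0.0299, higher on 4 of 4 days). The Runx1 difference was 1.22 in the line labelled Mtf2 null (SE 0.36, adjusted p = 0.0749, also higher on 4 of 4 days) and 0.24 in the line labelled Eed null (adjusted p = 0.839). The call for Runx1 was lost without day 0 (adjusted p = 0.0773), without day 2 (0.0936) or without day 4 (0.0964), and with edgeR on recovered reads (0.0583).

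Tek and Pecam1 were the members called lower. Tek was at 2.35, 6.92, 1.85 and 2.32 CPM on the 4 days in the line labelled Mtf2 null against 36.8, 36.2, 11.2 and 19.5 CPM in Pcl1-3 WT, with no overlap on any day (log2 difference -2.84, SE 0.31, limma adjusted p = 0.00359). Tek was at 2.04, 4.98, 1.23 and 3.00 CPM under the Eed null label, where J1 held 10.6, 15.8, 4.90 and 74.8 CPM, again lower on every day (-2.49, SE 0.51, adjusted p = 0.0341). That call for the Eed label was lost whichever day was left out (adjusted p of 0.0576 to 0.103). Pecam1 was at 111, 53.7, 30.7 and 35.2 CPM in the line labelled Mtf2 null and at 97.1, 66.3, 9.5 and 63 CPM in the line labelled Jarid2 null. It was below its own WT line on 4 of 4 days in the line labelled Mtf2 null (-1.28, SE 0.21, adjusted p = 0.0145) and in the line labelled Jarid2 null (-1.01, SE 0.21, adjusted p = 0.0217). The first was lost without day 4 (adjusted p = 0.0605), and the second without day 0 (0.0535), day 4 (0.0537) or day 7 (0.0561). In all, 2 of 7 tested members were called for the Mtf2 label (8.72% of all genes), 2 of 8 for the Jarid2 label (15.8%) and 1 of 9 for the Eed label (10.1%).

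Among the partner genes, Sox7 and Sox17, relatives of Sox18, were higher in the line labelled Mtf2 null (by 3.23 and 2.30 on the log2 scale, limma adjusted p = 0.00467 and 0.0339) and in the line labelled Jarid2 null (by 2.29 and 2.59, adjusted p = 0.00578 and 0.00894). Flt1, another VEGF receptor, was higher by 1.69 and 1.35. For the Mtf2 label 3 of 9 tested endothelial transcription factors were called higher (Elk3, Sox7, Sox17) and 1 lower (Klf2). For the Jarid2 label 3 of 12 were called higher and 0 lower, with 3 of 6 tested blood transcription factors and partners lower (Myb, Ldb1 and Ikzf1). For the Eed label limma called 0 of 14 endothelial factors, with 4 at an unadjusted p under 0.05 and 0 by edgeR on recovered reads. The TGF-beta co-receptor Eng was lower (log2 difference -2.85, SE 0.24, adjusted p = 0.00905). Summed endothelial markers (6 of 6 above 0) were at 184 CPM on day 7 in the line labelled Jarid2 null, 37.4 CPM in the line labelled Mtf2 null and 33.3 CPM in the line labelled Eed null, and at 110, 79.6 and 25.5 CPM in J1, JM8 and Pcl1-3 WT. Primitive red cell markers were at 459, 4.01 and 2.56 CPM in the mutant-labelled lines in the same order. Sox17 is also a gene of endoderm, and visceral endoderm markers (Afp, Ttr, Apoa1, Amn) summed on day 7 to 1817 CPM in the line labelled Mtf2 null (1.29 CPM in Pcl1-3 WT), 291 CPM in the line labelled Jarid2 null (22.5 CPM in JM8) and 771 CPM in the line labelled Eed null (454 CPM in J1). Their part in the result was not tested.

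Single-cell data placed the members in particular cells. The deposited clustering (resolution 2.5) split 4949 cells into 22 clusters. It was built on the most variable genes, and whether the members were among them was not checked. The members may therefore have shaped the clusters, and the levels by cluster are a description with no test. With 1 library per genotype and day there is also no replicate check between genotypes. Intervals are 95% (exact Poisson for UMI levels, Clopper-Pearson for shares of cells) and cover counting error only. Cluster 19, with 57 cells and a median of 6159 UMIs, had all 6 endothelial markers fixed for naming (Erg, Sox7, Esam, Cldn5, Egfl7, Emcn), each at its highest level of the 22 clusters, and is called endothelial-like. Cluster 18, with 114 cells and a median of 6004 UMIs, had 4 of 4 primitive red cell markers, with Hbb-bh1 at 19943 CPM, and is called erythroid-like. Genes of the red cell factors Gata1 and Klf1 had 0 UMIs in cluster 19. Each well barcode recurs in more than 1 library, as the plate format gives by design.

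Cdh5 was the most confined of the members: 85.4% of its 123 UMIs came from cluster 19, where it stood at 248 UMI CPM (202 to 300) with a UMI in 34 of 57 cells. Sox18 had 68.4% of its 415 UMIs there (670 CPM, 594 to 752) and Tie1 64.3% of 126 (191 CPM, 152 to 237). For these 3 genes no other cluster passed 32.3 CPM, the level of Tie1 in cluster 18. In the neural-marker cluster 15 (median 5860 UMIs), which should lack them, 1.47% to 2.21% of cells had a UMI of one or another. Tek and Kdr were highest in cluster 19 too (156 CPM, 120 to 198, and 1247 CPM), but only 32.8% and 32.6% of their UMIs lay there.

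Kdr reached beyond the endothelial-like cells. It had a UMI in 56 of 57 cells of cluster 19, in 97 of 190 cells of cluster 14 (204 CPM, 182 to 229), in 135 of 324 cells of cluster 4 (160 CPM, 144 to 178) and in 37 of 226 cells of cluster 13 (131 CPM, 113 to 150). Cluster 14 was led by the nascent mesoderm genes Mesp1, Mixl1, T and Eomes, and cluster 4 by Acta2, Col1a1 and Hand1, genes of contractile fibres, matrix and lateral mesoderm. In cluster 14 there was no UMI of Cdh5 or Tie1, which allows a share of cells with one of up to 1.58%. In cluster 13, 197 of the cells were Eed null. The share of cells with a Kdr UMI was 8.82% in cluster 15 and 0 of 335 cells in cluster 3, the undifferentiated WT cluster, which allows up to 0.896%. Etv2, upstream of Kdr in the embryo, was sparse: 109 UMIs in 67 cells, at 49.5 CPM (30.6 to 75.7) in cluster 19 and at most 9.50 CPM in any other.

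The blood genes were shared between the endothelial-like and the erythroid-like cells, and Runx1 leaned to the latter. Tal1 stood at 337 CPM in both, with a UMI in 33 of 57 cells of cluster 19 and 82 of 114 cells of cluster 18. Lmo2 was at 283 CPM (235 to 338) in cluster 19 and 239 CPM (208 to 274) in cluster 18. Runx1 was at 66 CPM (43.9 to 95.4) in cluster 19 but 331 CPM (294 to 372) in cluster 18, which held 51.3% of its 559 UMIs. Cdh5 had 2 UMIs in cluster 18, and Kdr was at 63.5 CPM there with a UMI in 21.9% of cells. Pecam1 differed again: only 5.85% of its 1025 UMIs were in cluster 19 (141 CPM, 108 to 182), and undifferentiated clusters carried it throughout, as in cluster 3 (36.7 CPM, 23.9% of cells). It had a UMI in 2.21% of cells of cluster 15.

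**Figure D2:**
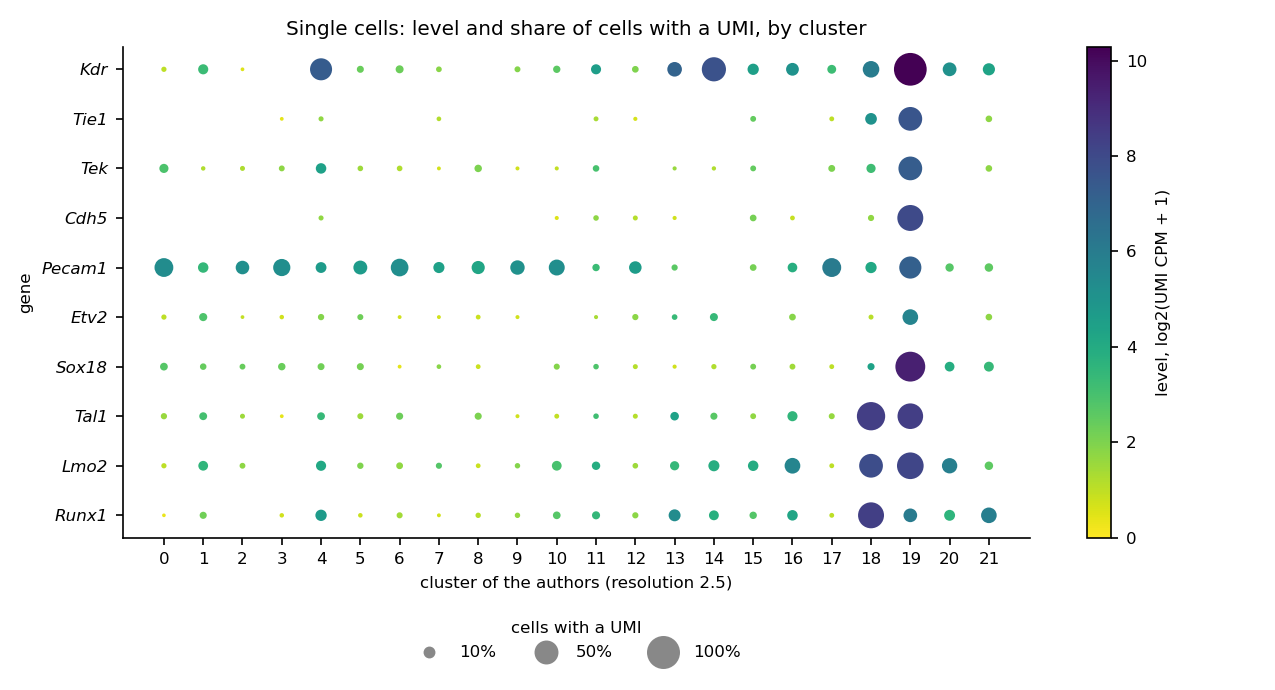
Dot plot of the 10 genes (rows) across the 22 deposited clusters (columns), with dot size for the percent of cells with a UMI and colour for the UMI CPM of the cluster. Cluster 19 has the highest level of Kdr, Cdh5, Sox18, Tie1, Tek, Lmo2, Etv2 and Pecam1, cluster 18 that of Runx1 (331 CPM), Tal1 is at 337 CPM in both, and Pecam1 is spread over many clusters.

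Genes whose pattern was most like that of the members over the 22 clusters, by Pearson's correlation of log2(UMI CPM + 10) with the members' mean scaled profile, were Ctla2a (r = 0.960), Calcrl (0.955), Vav3 (0.95), Rhoj (0.95), Egfl7 (0.942), Fli1 (0.939), Cd34 (0.936), Tnfaip2 (0.928), Plxnc1 (0.928) and Ccdc82 (0.927). The clusters share libraries and depth, and the value is a description. Of the other endothelial genes of the fixed lists, 9 of 10 receptors, 9 of 14 transcription factors and 11 of 11 surface and junction genes had their highest level of the 22 clusters in cluster 19, among them Flt1 at 568 CPM, Fli1 at 351 CPM and Egfl7 at 674 CPM. These counts include the markers by which the cluster was named (Erg, Sox7, Esam, Cldn5, Egfl7 and Emcn), so they are not separate evidence for the name. The share of all genes highest in cluster 19 was not computed.

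Cells that carried several members at once were few. With Pecam1 left out, because stem cells carry it, 130 of 4949 cells (2.63%, 2.2 to 3.11) had a UMI of at least 3 of the other 9 members. After each cell was thinned to 2500 UMIs, with 492 shallower cells left out, the share was 1.75%. In all, 54 of 57 in cluster 19 and 49 of 114 in cluster 18 met the rule, and no other cluster passed 3.09%. Kdr and Cdh5 occurred together in 39 cells, 34 of them in cluster 19 and 0 in cluster 18, whereas Tal1 and Runx1 occurred together in 72 cells, 58 of them in cluster 18 and 8 in cluster 19. By library, cells with 3 or more members were absent or below 1% through day 4 in every genotype. At day 10 they made up 35 of 214 WT cells (16.4%, 11.7 to 22.0), 22 of 321 Mtf2 null cells (6.85%, 4.34 to 10.2), 22 of 264 Jarid2 null cells (8.33%, 5.30 to 12.3) and 16 of 202 Eed null cells (7.92%, 4.6 to 12.5). Before thinning, the WT interval lay above that of Mtf2 null cells and overlapped those of Jarid2 null and Eed null cells. After thinning the shares were 9.95%, 5.24%, 7.17% and 5.68% in the same order. These rest on fewer cells (19 of 191 in WT and 15 of 286 in Mtf2 null). No interval was computed for them, so the separation is shown for unthinned cells only.

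Erythroid-like cells made up a larger share of the WT library than of the mutant libraries at day 10. Cluster 18 held 63 of 214 WT cells (29.4%, 23.4 to 36), 28 of 321 Mtf2 null cells (8.72%, 5.87 to 12.4), 9 of 264 Jarid2 null cells (3.41%, 1.57 to 6.37) and 3 of 202 Eed null cells (1.49%, 0.307 to 4.28). The WT interval did not overlap those of the mutants. Cluster 19 held 5 WT cells (2.34%, 0.763 to 5.37), 12 Mtf2 null cells (3.74%, 1.95 to 6.44), 18 Jarid2 null cells (6.82%, 4.09 to 10.6) and 10 Eed null cells (4.95%, 2.40 to 8.92), and these intervals all overlapped. No cell of either cluster was seen at day 0 (a limit of 0.865% to 0.890% per library), and the earliest of cluster 19 were 2 Jarid2 null cells and 1 Mtf2 null cell at day 4. The members may have helped to define both clusters, and each share is of 1 library.

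**Figure D3:**
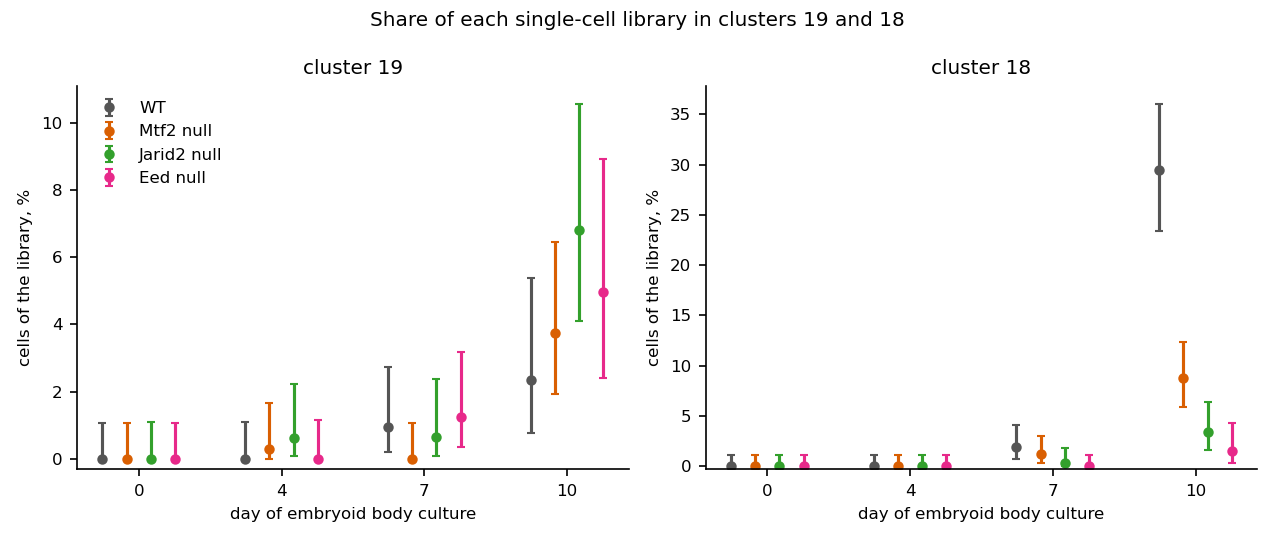
Percent of the cells of each library that lay in cluster 19 (endothelial-like) and cluster 18 (erythroid-like), by day (horizontal axis) and genotype, with 95% Clopper-Pearson intervals as bars. At day 10 cluster 18 made up 29.4% of WT cells and 1.49% to 8.72% of mutant cells, while the intervals for cluster 19 overlapped.

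Over whole libraries at day 10 Runx1 and Tal1 were highest in WT cells. Runx1 was at 143 UMI CPM (124 to 164) in WT cells against 31.5 CPM (24.4 to 39.9) in Mtf2 null, 25.4 CPM (18.4 to 34) in Jarid2 null and 34.3 CPM (25.1 to 45.8) in Eed null cells. Tal1 was at 131 CPM in WT and 27.3, 69.2 and 41.8 CPM in the mutants, in the same order. With clusters 18 and 19 taken out, Runx1 was at 12.2 CPM in WT, 11.1 CPM in Mtf2 null, 3.38 CPM in Jarid2 null and 30.1 CPM in Eed null cells. Kdr differed less between whole libraries at day 10 (108 CPM in Mtf2 null to 185 CPM in Jarid2 null), and without the 2 clusters it was at 115 CPM in WT, 57.7 CPM in Mtf2 null, 70.4 CPM in Jarid2 null and 139 CPM in Eed null cells. At day 7 Kdr stood at 102 CPM in WT and 90.6 CPM in Mtf2 null cells but at 28.9 CPM in Jarid2 null and 32.3 CPM in Eed null cells. Globin UMIs outside cluster 18 were at 1139 CPM in WT, 444 CPM in Mtf2 null, 132 CPM in Jarid2 null and 6.82 CPM in Eed null cells at day 10. They were highest where cluster 18 was largest, and their part in low member counts elsewhere was not tested.

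Within cluster 19 the members kept different levels by genotype, from 8 WT cells, 14 of the Eed null line, 22 of the Jarid2 null line and 13 of the Mtf2 null line. Kdr had a UMI in all 8 WT, all 13 Mtf2 null, all 22 Jarid2 null and 13 of 14 Eed null cells, at 1656, 1455, 1167 and 1009 CPM. Cdh5 was at 582 CPM (380 to 853) in WT, 462 CPM (330 to 629) in Mtf2 null, 85.1 CPM (50.4 to 134) in Jarid2 null and 258 CPM (160 to 395) in Eed null cells. Tie1 was at 358 CPM (205 to 582), 416 CPM (291 to 575), 66.2 CPM (36.2 to 111) and 185 CPM (103 to 304) in that order. The Jarid2 null cells were the lowest for both, and their counting intervals did not overlap those of any other genotype for Cdh5, nor those of WT and Mtf2 null for Tie1. Tek (224, 242, 109 and 148 CPM) and Pecam1 (246, 208, 80.3 and 172 CPM, in the same order) were also lowest in Jarid2 null cells. For both, the Jarid2 null intervals overlapped those of each other genotype. Lmo2, Tal1 and Sox18 were not lowest in Jarid2 null cells. Lmo2 was at 269, 185, 326 and 283 CPM, Tal1 at 448, 196, 392 and 283 CPM, and Sox18 at 716, 912, 610 and 542 CPM, again in that order. Runx1 was found in 3 of 8 WT cells (17 UMIs) and 5 of 22 Jarid2 null cells (11 UMIs), and in 0 of 13 Mtf2 null and 0 of 14 Eed null cells. Those zeros allow shares of cells of up to 23.1% and 21.4%. The cells come from 1 library per genotype and day, and their mix of days differed.

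**Figure D4:**
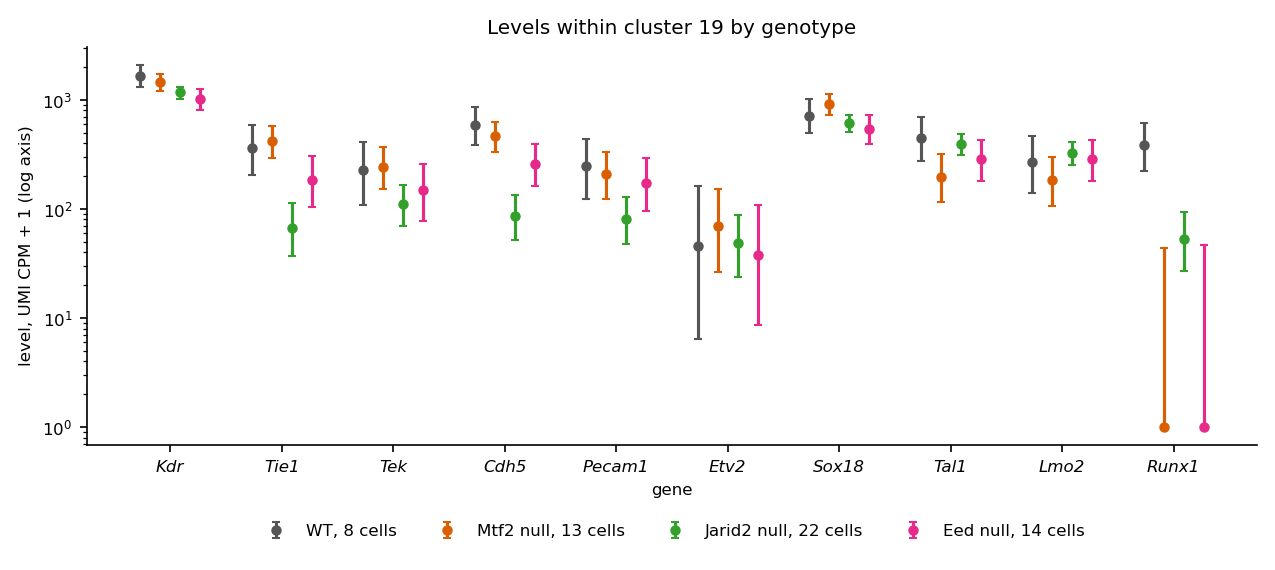
UMI CPM + 1 (log axis) of the 10 genes in the cells of cluster 19, by genotype, with 95% exact Poisson intervals as bars. Cdh5, Tie1, Tek and Pecam1 are lowest in Jarid2 null cells (85.1, 66.2, 109 and 80.3 CPM), and Runx1 is at 0 in Mtf2 null and Eed null cells.

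The directed series asked whether loss of MTF2 or JARID2 changes these genes when cells are driven to mesoderm or endoderm. Most members stayed low throughout: Kdr stayed at or under 0.839 CPM in every mesoderm library and 1.05 CPM in every endoderm library, Etv2 at or under 0.812 and 0.865 CPM, Tal1 at or under 1.67 and 1.78 CPM, and Tie1 at or under 1.44 and 1.76 CPM. The globin genes Hbb-bh1 and Hba-x were at 0 in all libraries, and Emcn was at 0 in all endoderm libraries. In both series Runx1 was called higher in Mtf2 null cells at all 4 times and Tek at all but 5 h. Cdh5 was called higher at 48 h in mesoderm, and in endoderm undifferentiated, at 24 h and at 48 h. No member was called in the libraries labelled Jarid2 null. A gene was called at an edgeR quasi-likelihood adjusted p under 0.001 with a log2 fold change past 1 in either direction. Where groups are said not to overlap, each held 2 libraries, and the share of all genes without overlap was not computed.

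Runx1 was the member called at all 4 times in both series. In the mesoderm series its levels in the 2 WT libraries were 2.07 and 1.53 CPM undifferentiated, 1.80 and 1.36 CPM at 5 h, 1.72 and 1.60 CPM at 24 h, and 0.783 and 1.06 CPM at 48 h. In Mtf2 null libraries they were 7.46 and 10.7, 7.56 and 7.53, 11.6 and 10.8, and 13.7 and 10.7 CPM. The genotypes did not overlap at any time, and Runx1 was lowest in WT at 48 h. The log2 fold changes of Runx1 were 2.33 (SE 0.26, edgeR adjusted p = 6.03e-07), 2.24 (SE 0.27, 2.39e-06), 2.75 (SE 0.26, 9.43e-08) and 3.73 (SE 0.27, 2.18e-09). In the endoderm series WT libraries held 0.662 and 1.59, 1.85 and 1.42, 0.581 and 1.08, and 1.21 and 1.13 CPM, and Mtf2 null libraries 9.61 and 9.93, 7.17 and 6.91, 13.0 and 12.0, and 44.8 and 38.4 CPM. The 48 h endoderm libraries thus carried the highest Runx1 of both directed series. The log2 fold changes were 3.10 (SE 0.27, adjusted p = 1.09e-08), 2.09 (SE 0.26, 2.01e-06), 3.87 (SE 0.26, 2.9e-10) and 5.14 (SE 0.25, 5.85e-13). In libraries labelled Jarid2 null Runx1 stayed between 0.757 and 2.57 CPM in the mesoderm series and between 0.979 and 2.07 CPM in the endoderm series. Single cells at day 0 did not show a higher Runx1 in the Mtf2 null library. It had 1 UMI there (0.257 CPM, 0.00651 to 1.43) against 2 UMIs in WT (0.669 CPM, 0.0810 to 2.42).

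Tek rose in WT cells under both protocols and was higher still in Mtf2 null cells. This was the opposite direction to bulk embryoid bodies, where Tek was lower in the line labelled Mtf2 null (log2 difference -2.84, limma adjusted p = 0.00359). The WT line was E14 here and Pcl1-3 WT there, and the reason for the opposite directions was not tested. WT mesoderm libraries held 2.56 and 1.96 CPM undifferentiated, 4.33 and 3.34 CPM at 5 h, 5.78 and 5.39 CPM at 24 h, and 8.22 and 8.63 CPM at 48 h. Mtf2 null mesoderm libraries held 15.5 and 13.5, 4.62 and 5.47, 13.7 and 15.0, and 24.7 and 20.8 CPM, above WT at each time but lower at 5 h than before or after. The log2 fold changes of Tek against WT were 2.68 undifferentiated (SE 0.22, edgeR adjusted p = 9.56e-09), 1.36 at 24 h (SE 0.19, 2.39e-05) and 1.43 at 48 h (SE 0.18, 5.09e-06), and it was not called at 5 h. In the endoderm series WT went from 2.55 and 2.06 CPM undifferentiated to 12.2 and 8.56 CPM at 48 h and Mtf2 null from 12.4 and 14.0 CPM to 22.8 and 22.1 CPM. The fold changes there were 2.51 undifferentiated (SE 0.25, adjusted p = 6.05e-08), 1.35 at 24 h (SE 0.21, 3.72e-05) and 1.11 at 48 h (SE 0.19, 0.000109). The 24 h calls were lost without WT replicate 2 of that time (adjusted p = 0.00140 in mesoderm and 0.00313 in endoderm). The 48 h endoderm call was lost without WT replicate 2 (0.00579) or without Mtf2 null replicate 1 (0.00156) or 2 (0.00104). In WT alone, Tek at 48 h was called against undifferentiated cells in mesoderm (log2 fold change 1.90, adjusted p = 1.73e-06) and in endoderm (2.17, 9.06e-07).

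Cdh5 was near the limit of detection except in Mtf2 null cells. In the mesoderm series the WT libraries held 0.590 and 0.340 CPM undifferentiated, 0.271 and 0.209 CPM at 5 h, 0.181 and 0 CPM at 24 h, and 0 and 0 CPM at 48 h. The Mtf2 null libraries there held 2.14 and 3.52, 2.49 and 1.99, 1.04 and 0.919, and 1.90 and 1.58 CPM (21 and 20 counts at 48 h). In the endoderm series WT held 0.851 and 0.374, 0.694 and 0.837, 0.0726 and 0.191, and 0 and 0 CPM, while Mtf2 null libraries held 2.51 and 2.83 CPM undifferentiated, 1.98 and 2.12 CPM at 5 h, 1.38 and 1.28 CPM at 24 h, and 9.71 and 11.3 CPM at 48 h (130 and 162 counts). The libraries of both genotypes did not overlap at any time, and the Mtf2 null level was highest in endoderm at 48 h. Against a floor of 3 counts per WT library, Cdh5 at 48 h was at least 7.93-fold higher in mesoderm (edgeR adjusted p = 4.54e-05) and at least 38.8-fold higher in endoderm (adjusted p = 8.56e-10). It was called in endoderm also undifferentiated (log2 fold change 2.11, SE 0.42, adjusted p = 0.000437) and at 24 h (3.20, SE 0.56, 0.0002). It was not called in mesoderm undifferentiated (2.59, SE 0.58, adjusted p = 0.00148), at 5 h (adjusted p = 0.00117) or at 24 h (0.00549), or in endoderm at 5 h (0.0116). The 48 h mesoderm call was lost without WT replicate 1 (adjusted p = 0.00163). The undifferentiated endoderm call was lost without WT replicate 2 (0.0152) or either Mtf2 null replicate (0.00209 and 0.00433), and the 24 h endoderm call without any 1 of its 4 libraries (0.00160 to 0.00571).

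Pecam1 went the other way: it was called lower at 5 h, in both series, and at no other time. WT mesoderm libraries held 36.9 and 38.1 CPM at 5 h against 16.2 and 14.1 CPM in Mtf2 null libraries, and WT endoderm libraries 65.2 and 61.6 CPM against 30.4 and 30.5 CPM. There was no overlap (log2 fold change -1.31, SE 0.18, edgeR adjusted p = 1.72e-05 in mesoderm, and -1.06, SE 0.13, adjusted p = 2.67e-06 in endoderm). The mesoderm call was lost without Mtf2 null replicate 2 at 5 h (adjusted p = 0.00116). In undifferentiated cells Pecam1 was at 53.1 and 42.8 CPM in WT and 49.1 and 44.8 CPM in Mtf2 null mesoderm libraries, and at 48 h at 53.7 and 68.2 against 49.98 and 59.2 CPM, which overlapped.

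**Figure D5:**
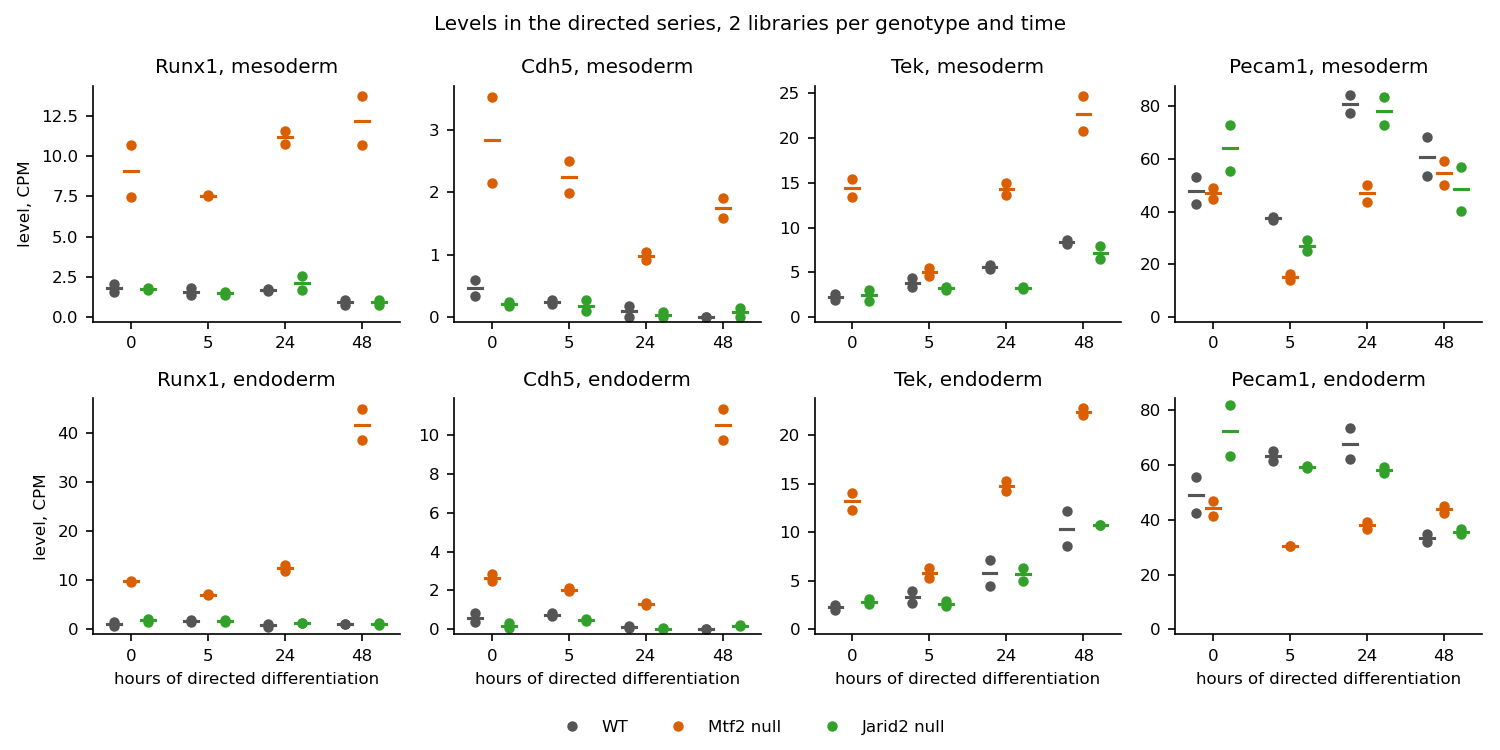
CPM of Runx1, Cdh5, Tek and Pecam1 (columns) against hours of differentiation in the mesoderm and endoderm series (rows), by genotype, with a dot per library and a bar at the mean of 2. The Mtf2 null dots of Runx1 and Cdh5 lie above the WT dots and those labelled Jarid2 null at every time, with the highest in endoderm at 48 h (44.8 and 38.4 CPM, and 9.71 and 11.3 CPM), although Cdh5 was not called in mesoderm before 48 h or in endoderm at 5 h.

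None of the other members was called between Mtf2 null and WT cells. Lmo2 was highest in Mtf2 null mesoderm libraries at 24 h (5.88 and 5.18 CPM against 1.99 and 2.70 CPM in WT, log2 fold change 1.23, SE 0.36, edgeR adjusted p = 0.0176). Sox18 was at 2.14 and 1.97 CPM in undifferentiated Mtf2 null libraries of the mesoderm series against 0.689 and 0.17 CPM in WT (2.27, adjusted p = 0.00781). Kdr in endoderm at 48 h was at 1.05 and 1.05 CPM in Mtf2 null libraries against 0.173 and 0.094 CPM in WT (2.87, SE 0.65, adjusted p = 0.00144). That Mtf2 null group held the highest Kdr of the endoderm series (1.05 CPM, 15 counts). Its place among the tested members may thus rest on the group where it was high. Tie1 was at 0.178 and 0.284 CPM in Mtf2 null mesoderm libraries at 5 h against 1.44 and 1.36 CPM in WT (-2.52, adjusted p = 0.0017). None of these differences passed the threshold of 0.001. The libraries of each pair of groups did not overlap, but how often that happens over all tested genes was not computed. Over the 24 libraries of a series, the gene whose log2 CPM was most like that of Kdr was Gm19200 in mesoderm (r = 0.76) and Mppe1 in endoderm (r = 0.77), at counts of Kdr of at most 9 and 15 per library. Tal1 fell in WT endoderm from 1.13 and 1.78 CPM undifferentiated to 0.145 and 0.191 CPM at 24 h (log2 fold change -3.03, SE 0.63, adjusted p = 0.000846), a call that was lost without any 1 of the 4 libraries (adjusted p of 0.00132 to 0.0189).

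In counts, Mtf2 null against WT called 2, 2, 2 and 3 of the 8 tested members in mesoderm (undifferentiated, 5, 24 and 48 h), where 11.1%, 7.56%, 5.72% and 6.82% of all tested genes were called. In endoderm it called 3, 2, 3 and 3 of the 9, where 11%, 7.61%, 6.58% and 10.5% of all were called. Cdh5, among the 3 called at 48 h in mesoderm, was under the filter's minimum count of 10 in every WT mesoderm library. Its place among the 8 tested members thus did not come from WT libraries. The members' median log2 fold changes at the 4 times were 1.39, 0.69, 0.88 and 0.92 in mesoderm and 1.32, 0.52, 1.35 and 0.40 in endoderm, beside medians of -0.05 to 0.01 over all tested genes. The Jarid2 label against WT called 0 members at each time in both series by edgeR and 0 by DESeq2, where edgeR called 0.37%, 0%, 1.97% and 0.169% of all genes in mesoderm and 0.742%, 0.0363%, 0.0312% and 0.125% in endoderm. At an unadjusted p under 0.05, edgeR gave 1, 1, 1 and 0 members in mesoderm and 3, 1, 0 and 2 in endoderm. The lowest adjusted p among them was that of Pecam1 in undifferentiated endoderm libraries, at 81.7 and 63.1 CPM against 55.7 and 42.6 CPM in WT (log2 fold change 0.56, adjusted p = 0.00759). Next came Tek in mesoderm at 24 h, at 3.32 and 3.17 CPM against 5.78 and 5.39 CPM (-0.78, SE 0.22, adjusted p = 0.0147). WT cells against their undifferentiated state called 1 member at 24 h and 1 at 48 h in mesoderm (6.96% and 8.64% of all genes), each time Tek. In endoderm they called 2 and 2 (5.31% and 8.15%), Tek higher at both times, Tal1 lower at 24 h and Cdh5 lower at 48 h (edgeR adjusted p = 0.000603). The 24 h call of Tek in mesoderm (log2 fold change 1.31, adjusted p = 0.000202) was lost without either WT 24 h library (0.00238 and 0.00172) or WT undifferentiated replicate 2 (0.00898). That in endoderm (1.32, adjusted p = 0.000526) was lost without WT 24 h replicate 1 (0.0173) or either undifferentiated library (0.00249 and 0.0167). The call of Cdh5 was lost without either 48 h library (0.0072 and 0.00688) or WT undifferentiated replicate 1 (0.0126).

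Whether the Mtf2 null effect grew with differentiation was tested directly, as the effect at 48 h minus the effect in undifferentiated cells. In endoderm 1 of 9 members was called, Cdh5 (log2 difference of effects 7.98, SE 1.15, edgeR adjusted p = 4.92e-05), where 5.24% of all genes were called. Its WT libraries were at 0 at 48 h, so the size depends on the fit. Without WT undifferentiated replicate 1 the adjusted p was 0.00135. Runx1 had a difference of 2.04 in endoderm (SE 0.43, adjusted p = 0.00148) and 1.39 in mesoderm (adjusted p = 0.0177). Tek had a smaller effect at 48 h than before in both series (-1.40, adjusted p = 0.00298, and -1.25, adjusted p = 0.00497), none past the threshold. In mesoderm edgeR called 0 of 8 members, with 4 at an unadjusted p under 0.05 and 0 by DESeq2 (2.71% of all genes called). For the Jarid2 label it called 0 in both series, with 2 in mesoderm and 3 in endoderm at an unadjusted p under 0.05 and 0 by DESeq2 (0.0545% and 0.514% of all genes).

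The counts of other pathway genes in Mtf2 null cells stand beside the same shares of all tested genes (11.1%, 7.56%, 5.72% and 6.82% in mesoderm, and 11%, 7.61%, 6.58% and 10.5% in endoderm). Among the endothelial transcription factors, 2 of 12 tested were called higher in mesoderm at each time, Sox17 (log2 fold changes 3.35, 3.62, 3.31 and 4.72) and Sox7 (1.77, 1.22, 2.28 and 2.72). In endoderm 3, 1, 3 and 5 of 11 were called higher, with Sox17 at 6.85, Sox7 at 3.79, Ets1 at 2.79, Klf2 at 1.62 and Hhex at 1.54 by 48 h. Of the receptors, the semaphorin and VEGF co-receptor gene Nrp2 was higher undifferentiated, at 24 h and at 48 h in both series (1.13 to 3.11), and Flt1 was higher by 3.58 in endoderm at 48 h. Flt1 was also higher at 24 h, by 1.59 in mesoderm and 1.36 in endoderm. Flt4 was lower in undifferentiated cells of the endoderm series (-1.30). Of the surface genes, Esam was higher at 48 h (2.10 in mesoderm and 3.06 in endoderm), while Mmrn2 was lower at every time (-2.89 to -5.35). Robo4 was higher at 5 h (1.57 in mesoderm and 1.56 in endoderm). Vwf was higher undifferentiated in both series (1.43 and 1.23) and at 24 h and 48 h in endoderm (1.21 and 1.14). Of the 5 tested ligand genes Vegfc was the one called, lower in undifferentiated cells of both series, at 5 h and 24 h in mesoderm, and at 24 h and 48 h in endoderm, and among receptors Notch4 was lower undifferentiated and at 5 h in both series and at 24 h in mesoderm. Of the blood transcription factors and partners, edgeR called 0 of 8 tested at any time in either series, with 0, 0, 3 and 2 at an unadjusted p under 0.05 in mesoderm and 1, 0, 2 and 2 in endoderm, and 0 by DESeq2. Kit, the stem cell factor receptor, was called lower undifferentiated, at 5 h and at 24 h in both series (-1.18 to -1.77) and higher (2.69) in endoderm at 48 h. Epor was lower in undifferentiated cells of the mesoderm series (-2.43). In libraries labelled Jarid2 null, Kit (-1.20), Notch4 (-1.30) and Klf2 (-1.15) were called lower in mesoderm at 24 h. Vegfa was called lower there in endoderm at 48 h (-1.21). For Kit and Notch4 the Mtf2 null values in mesoderm at 24 h were -1.18 and -1.21.

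Markers of other cells moved with these genes. Definitive endoderm markers (Sox17, Foxa2, Cxcr4, Cer1) summed to 48.2 to 56.7 CPM in Mtf2 null endoderm libraries at 48 h against 0.779 to 0.846 CPM in WT, and to 25.9 to 33.9 against 1.11 to 2.36 CPM in mesoderm, with 2 of the 3 tested markers called higher. Visceral endoderm markers (Afp, Ttr, Apoa1, Amn) summed to 67.9 to 86.4 against 0.282 to 0.779 CPM in endoderm and to 32.4 to 33.1 against 0.913 to 0.977 CPM in mesoderm, with both tested markers, Ttr and Amn, called higher. Endothelial markers summed to 72.9 to 74.1 against 17.0 to 23.4 CPM in endoderm and to 43.8 to 44.6 against 17.4 to 18.7 CPM in mesoderm. Of these, Sox7 and Esam were called higher in both, Erg had a group mean of at most 0.50 CPM, and Emcn was at 0 in endoderm. Their part in the member levels was not tested.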

How the data were processed

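RNA of 48 directed libraries, 24 embryoid body samples and 16 single-cell libraries was analysed, with genes on GRCm38. For the directed series the authors deposited estimated counts from Salmon, which were rounded to whole numbers. For bulk embryoid bodies the deposited signal was a read count per gene divided by a DESeq2 size factor, and repeat columns were averaged to give 1 sample per line and day. For single cells (SORT-seq, in 384-well plates) the deposited counts were UMIs per gene and cell, with the authors' clusters. The submitters' notes name CASAVA, Bowtie2, HTSeq, Salmon and DESeq2, and versions were not given in the sources used here.

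Directed counts were tested with edgeR 4.0.16 in R 4.3.3 (quasi-likelihood F test, TMM scaling, filterByExpr with a minimum count of 10 and total of 15), with 1 mean per genotype and time over the 24 libraries of a series. A call needed a log2 fold change past 1 in size and a p under 0.001 after Benjamini-Hochberg adjustment, and the SE is the log2 fold change divided by the square root of F. Embryoid bodies were tested with limma 3.58.1 (trend) on log2 CPM with a prior count of 2, for genes at 1 CPM or more in 4 samples, with day or line as a block and an adjusted p under 0.05. Levels are CPM after TMM scaling. The steps of all 46 embryoid body columns gave whole reads (100% of values within 0.02 of a whole number), and edgeR was also run on those reads, an alternative chosen after seeing the data. DESeq2 1.42.0, other scalings, filters and blocks, and fits without each library were further alternatives.

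Single-cell levels are UMIs per 1e6 UMIs of the cells summed. Floors and limits for a value of 0 use 3 counts or cells. Cells were thinned to 2500 UMIs to compare shares across depths, and no doublet caller was run: the 1% of cells with the most UMIs (over 23161) were left out as a check. The tests were run first on simulated data. Named genes are the 10 members, genes taken from those called in 6 fixed pathway lists, the fixed cell type markers, and genes most like the members by cluster. The members and lists were chosen with earlier results of these data known. Same-numbered directed libraries had correlated deviations of -0.17 to 0.27 over 20 pairs of groups, so the numbers were not taken as pairs.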

Additional observations from a re-analysis of the deposited data

Results flagged for a closer look

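Cdh5 was singled out by a test of a difference between times. The Mtf2 null effect on Cdh5 in the endoderm series was larger at 48 h than in undifferentiated cells by 7.98 on the log2 scale (SE 1.15, edgeR interaction test, adjusted p = 4.92e-05). The WT libraries held 0.851 and 0.374 CPM undifferentiated and 0 and 0 CPM at 48 h, so both a loss in WT and a gain in Mtf2 null libraries (2.51 and 2.83 CPM to 9.71 and 11.3 CPM) entered the difference. The fitted size depends on the prior count. The call was lost without WT undifferentiated replicate 1 (7.28, adjusted p = 0.00135).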

How the results depend on the processing

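None of the called members changed direction under any alternative. In the directed series 27 calls were followed through 245 alternatives, with 207 keeping the call and 38 losing it, and in embryoid bodies 12 calls were kept in 57 refits and lost in 44. Runx1 kept each of its directed calls. The numbers of members called were 0 for WT mesoderm at 24 h, 1 for Mtf2 null endoderm at 24 h, 0 for WT endoderm at 24 h and 1 at 48 h when only the groups compared were fitted. DESeq2 gave 1 for WT endoderm at 24 h and 1 at 48 h. With no low count filter the numbers were 2 for WT mesoderm at 48 h and 3 for the Mtf2 null difference of effects in endoderm. In embryoid bodies, with no day block, 1 member was called for the Mtf2 label, 0 for the Jarid2 label and 0 for the Eed label, and 3 in the WT lines with no line block. With no low value filter the numbers were 0, 0, 0 and 2. edgeR on recovered reads called 1 member for the Jarid2 label. Genes called overall were 1234, 2195, 1472 and 3773 with limma (Mtf2, Jarid2 and Eed labels, WT lines), 987, 1929, 986 and 3445 with edgeR on recovered reads, 259, 140, 18 and 1486 with no block, and 4, 1, 0 and 2607 with no filter. Leaving out 1 library gave 1 to 2 members for Mtf2 null mesoderm at 5 h and at 24 h, 2 to 3 at 48 h, 1 to 2 for Mtf2 null endoderm at 24 h, 2 to 3 undifferentiated and at 48 h, 0 to 1 for WT at 24 h in both series and 1 to 2 for WT endoderm at 48 h. Leaving out 1 day gave 1 to 3 for the Mtf2 label, 0 to 1 for the Jarid2 label and 0 to 0 for the Eed label, and leaving out 1 line 0 to 8 in the WT lines. With a replicate block the member counts did not change (2, 2, 2 and 3 for Mtf2 null mesoderm, and 3, 2, 3 and 3 for endoderm). The block rests on shared numbers only (correlations of -0.17 to 0.27). The share of cells with 3 or more of 9 members was 2.63%, 1.75% after thinning and 2.55% without the cells of highest depth. Depth limits members below about 1 CPM in directed libraries, and the causes of the changes were not tested.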
